A study of Mus musculus with 8 samples.

Results

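The genes described here encode the secreted Wnt ligands, their Frizzled and Lrp receptors, their secreted inhibitors, and the Axin and Tcf/Lef proteins that pass the signal on inside the cell, measured in the whole skin of late mouse embryos (E18.5, shortly before birth). They were chosen by symbol: every probe set of either array type with exactly 1 symbol that was Wnt, Fzd, Sfrp or Dkk followed by a number, or Frzb, Wif1, Lrp5, Lrp6, Lef1, Tcf7, Tcf7l1, Tcf7l2, Axin1, Axin2, Wisp1 or Wisp2. This gave 63 of 24965 probe sets, 45 of 12488 on the A chip for 36 genes and 18 of 12477 on the B chip for 16 genes. They stand for 40 genes, 12 of them measured on both chips. Tcf7, Wisp1 and Wisp2 were not analysed here.

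p63 null embryos, which lack the transcription factor encoded by Trp63, were set against wild-type (wt) embryos from matings of p63 heterozygous mice. Each genotype had 2 arrays of the A chip and 2 of the B chip, and each array was made from the whole skin of 1 embryo. The sources used here do not give the p63 allele, the strain or the sex of the embryos. The labels do not tie a null embryo to a wild-type one, and do not say whether the arrays numbered alike on the A and B chips came from 1 embryo, so the genotypes were compared on each chip apart and without pairing. Mice without p63 are known to form no stratified epidermis and no hair follicles, which limits what whole skin can show about any single cell type.

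In the canonical branch of the pathway, a Wnt protein binds a Frizzled receptor together with Lrp5 or Lrp6. This halts the destruction of beta-catenin, which then enters the nucleus and works with Tcf and Lef factors to switch on target genes. In skin the pathway is known for starting hair follicles, where Wnt signals from the epidermis and the dermis and their inhibitors set the position of each follicle. Other branches use Frizzled receptors to align cells within the sheet, which sets the direction in which hairs point.

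The inhibitor Wif1, the ligands Wnt3, Wnt4 and Wnt6, the receptors Fzd6 and Fzd5, the feedback scaffold Axin2 and the nuclear factor Lef1 were lower in null skin. The receptor Fzd4, the ligand Wnt7b, the inhibitor Sfrp2 and the nuclear factor Tcf7l2 were higher. The calls for Fzd5, Wnt7b, Sfrp2, Tcf7l2 and the B-chip probe sets of Fzd4 were lost under some of the alternative settings tried. The fall of Axin2 was that of its B-chip probe set, and its dimmer A-chip probe set overlapped between the genotypes. Of the 63 probe sets, 36 were bright enough to be tested, and 15 of these, for 12 genes, passed limma's test at an adjusted p of 0.05 (9 lower and 6 higher). The A chip had 7 of 20 tested probe sets that passed, or 35%, 3 higher and 4 lower, where 44.3% of all tested probe sets passed, 22.1% higher and 22.2% lower. The B chip had 8 of 16, or 50%, 3 higher and 5 lower, where 29.4% of all tested probe sets passed, 14.5% higher and 14.9% lower. The median log2 difference of the tested members was 0.27 (A chip) and 0.08 (B chip), beside 0.02 and 0.04 over all tested probe sets. The genotypes did not overlap, with both null arrays above or both below the wild-type arrays, in 14 of the 20 tested A-chip members. The same held in 11 of the 16 tested B-chip members. Over all tested probe sets the shares were 73.9% and 67.7%.

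Differences are null minus wild type on the log2(signal + offset) scale, with an offset of 12.9 for the A chip and 54.3 for the B chip. They therefore understate the change of dim probe sets. A probe set was tested when its mean log2 value over the 4 arrays of its chip was above the 40th percentile. Of the members tested, Wnt3, Wnt6, Wif1, Fzd5 and, on the A chip, Fzd1 were above that level in wild type alone, and Lrp5 in null skin alone, so the share of passing probe sets among those tested is a description and no support. Adjusted p-values are from limma, Benjamini-Hochberg over all tested probe sets of the chip. Signals are in arbitrary units, and the level of one probe set cannot be set against that of another.

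Facts of the arrays bear on all that follows. Trp63 had a signal of 61.9 and 46.6 in null skin, against 379.3 and 347.1 in wild type, but the sources used here do not say whether its probes overlap the altered part of the gene. The keratinocyte marker list fell in 8 of 9 tested genes on the A chip and rose in 0, and its summed signal was 3720 and 4198 in null skin, against 31565 and 30329 in wild type. All 4 tested on the B chip fell, with sums of 2210 and 1962 in null skin, against 23030 and 25581 in wild type. Of the defining keratins, Krt5, Krt14 and Krt15 read at most 15.9 on the A chip in either genotype, whereas Krt15 on the B chip read 842.1 and 784.0 in null skin, against 10543.6 and 12121.1 in wild type. Hair follicle markers fell in 7 of 8 tested genes on the A chip, with sums of 420 and 504 in null skin, against 3100 and 2999 in wild type, and in 4 of 4 on the B chip. Of all tested probe sets, 22.2% (A chip) and 14.9% (B chip) were called lower. Of the falling markers, Ivl, Tfap2c, Krt25, Krt27, Dlx3, Gata3 (both chips) and B-chip Dsc3 passed the testing level in wild type alone. The marker counts are therefore a description. In whole skin, fewer cells of a type and less RNA per cell cannot be told apart. RNA integrity was read from the 3'/5' signal ratio of beta-actin, which was 1.27 in both null arrays of the A chip, against 1.63 and 1.69 in wild type. Its B-chip values were 1.36 and 1.33 in null skin, against 1.50 and 1.98 in wild type. The same ratio for Gapdh was 1.25 and 1.45 in null arrays of the A chip, against 1.47 and 2.46 in wild type, and 1.26 and 1.51 in null arrays of the B chip, against 1.55 and 2.66 in wild type, so wild-type array 2 stood apart on each chip. Without it, 5 A-chip members (1 higher, 4 lower) and 4 B-chip members (0 higher, 4 lower) passed the test. Null array 2 of each chip stood apart in a spiked control transcript, CreX, at 6419.5 on the A chip, where the other 3 arrays read 3333.7 to 3836.8, and without it 6 members of each chip passed. Markers of Schwann cells and melanocytes fell in 3 of 5 tested genes on the A chip and rose in 0, with sums of 1016 and 1064 in null skin, against 1725 and 1690 in wild type. The other tested A-chip markers, Sox10 (difference -0.05) and Tyrp1 (0.50), were not called. On the B chip 0 of 2 tested genes were called, with sums of 1718 and 1744 in null skin, against 1844 and 1710 in wild type. The part of these shifts in the Wnt gene differences was not tested.

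The start regions of 4 genes are printed to show what lies at the promoters of genes that were low in null skin: Wif1, which had the largest fall, Axin2, the textbook target of the pathway, and Wnt3 and Dkk1, which hold a match to the Tcf/Lef motif. Each is the RefSeq window of 300 bases on GRCm38.p6, 250 before and 50 after the annotated start of the gene, 5′ to 3′ on the strand of the gene. Capitals mark matches to the motif, searched on both strands as CTTTG followed by AA, AT, TA or TT. None of them overlapped the p53-family motif described after the sequences.
Wif1, chr10:121033754-121034053, plus strand: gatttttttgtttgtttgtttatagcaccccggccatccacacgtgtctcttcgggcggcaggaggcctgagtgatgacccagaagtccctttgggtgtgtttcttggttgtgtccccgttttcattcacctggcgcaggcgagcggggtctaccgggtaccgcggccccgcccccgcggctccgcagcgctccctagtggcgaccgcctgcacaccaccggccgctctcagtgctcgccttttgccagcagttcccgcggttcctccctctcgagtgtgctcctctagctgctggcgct
Axin2, chr11:108920099-108920398, plus strand: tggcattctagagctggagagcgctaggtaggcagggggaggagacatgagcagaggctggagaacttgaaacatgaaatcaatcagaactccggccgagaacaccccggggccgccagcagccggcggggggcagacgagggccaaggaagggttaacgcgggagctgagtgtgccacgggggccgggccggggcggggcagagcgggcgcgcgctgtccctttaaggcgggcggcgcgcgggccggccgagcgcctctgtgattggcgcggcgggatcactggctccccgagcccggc
Wnt3, chr11:103773925-103774224, plus strand: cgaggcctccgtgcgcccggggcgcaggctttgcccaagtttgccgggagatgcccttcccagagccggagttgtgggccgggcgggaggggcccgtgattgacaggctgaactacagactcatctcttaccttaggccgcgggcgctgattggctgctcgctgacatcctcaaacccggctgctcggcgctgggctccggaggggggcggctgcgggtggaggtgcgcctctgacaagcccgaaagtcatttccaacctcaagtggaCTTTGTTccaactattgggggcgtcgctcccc
Dkk1, chr19:30549447-30549746, minus strand: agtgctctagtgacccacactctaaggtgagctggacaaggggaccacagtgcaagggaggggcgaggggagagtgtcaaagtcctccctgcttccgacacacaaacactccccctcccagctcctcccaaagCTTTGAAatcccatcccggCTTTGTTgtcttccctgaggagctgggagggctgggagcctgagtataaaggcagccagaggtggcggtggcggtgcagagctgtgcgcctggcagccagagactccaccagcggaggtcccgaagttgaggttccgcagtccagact
Dkk1 held 2 matches, beginning 117 and 98 bases before the start, and Wnt3 held 1, beginning at base 19 after it. Windows were found for 26 of the 40 genes, 33 windows in all, and 7 of them (21.2%) held a match, beside 16.9% of all 32851 RefSeq windows. Among the genes that fell, 7 of 8 had a window, and 2 of their 10 windows held a match, that of Wnt3 and 1 of the 4 of Lef1. A p53-family motif, read as a pair of cores (each CATG, CAAG or CTTG, a set that covers both strands) with NNNNNN between them, had a match in 0 of the 33 windows and in 4.72% of all windows. A match is a description of letters, not a binding site, and the lack of one says only that these letters are not in these windows.

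Of the 5 tested ligands of the A chip, 3 fell in null skin and 0 rose, or 60% called. Of all tested probe sets of that chip, 44.3% were called, 22.2% lower. Wnt3 and Wnt6 were above the level for testing in wild type alone, and 11 of the 16 ligand probe sets were not tested. The share of ligands is therefore a description and no support. Wnt4, a ligand also known for kidney and ovary development, read 55.4 and 69.5 in null skin, against 204.8 and 239.7 in wild type. It fell by 1.64 on the log2 scale (SE 0.19, adjusted p = 0.000169). Wnt3, a canonical ligand that skin epithelium makes, read 32.5 and 54.6 in null skin, against 129.4 and 163.2 in wild type. It fell by 1.52 (SE 0.25, adjusted p = 0.00115). For both ligands, the higher null array was well under the lower wild-type array. Wnt6, another ligand of the surface ectoderm, read 41.9 and 35.0 in null skin, against 98.2 and 93.5 in wild type. It fell by 1.09 (SE 0.22, adjusted p = 0.00343). All 3 calls held under each of the alternatives tried in which the probe set was tested. These falls stand beside those of the keratinocyte and hair follicle markers given above.

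Wnt7b, a ligand of epithelia including the skin, went the other way on the B chip. Its signal was 676.2 and 627.6 in null skin, against 413.9 and 399.2 in wild type, and the groups did not overlap. The difference was 0.62 on the log2 scale (SE 0.16, adjusted p = 0.0267). Leaving out wild-type replicate 1 or 2 ended the call (adjusted p = 0.116 and 0.148), as did leaving out null replicate 1 (0.0504). On the A chip the probe set of Wnt7b read 5.6 and 9.8 in null skin, against 20.4 and 4.8 in wild type, too dim to be tested.

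Of the other tested ligands, Wnt10a, mutated in human disorders of teeth and hair, read 92.4 and 98.7 in null skin, against 158.9 and 115.2 in wild type. The difference was -0.45 (95% confidence interval -0.91 to 0.00, adjusted p = 0.0995). Wnt1, best known from the brain, read 89.2 and 98.8 in null skin, against 70.7 and 65.7 in wild type, a difference of 0.40 (-0.05 to 0.85, adjusted p = 0.134). Neither passed, although the groups did not overlap for either. Wnt2 on the B chip read 271.3 and 369.3 in null skin, against 279.0 and 190.9 in wild type, so its groups overlapped, and the difference was 0.38 (-0.21 to 0.96, adjusted p = 0.291).

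**Figure D1:**
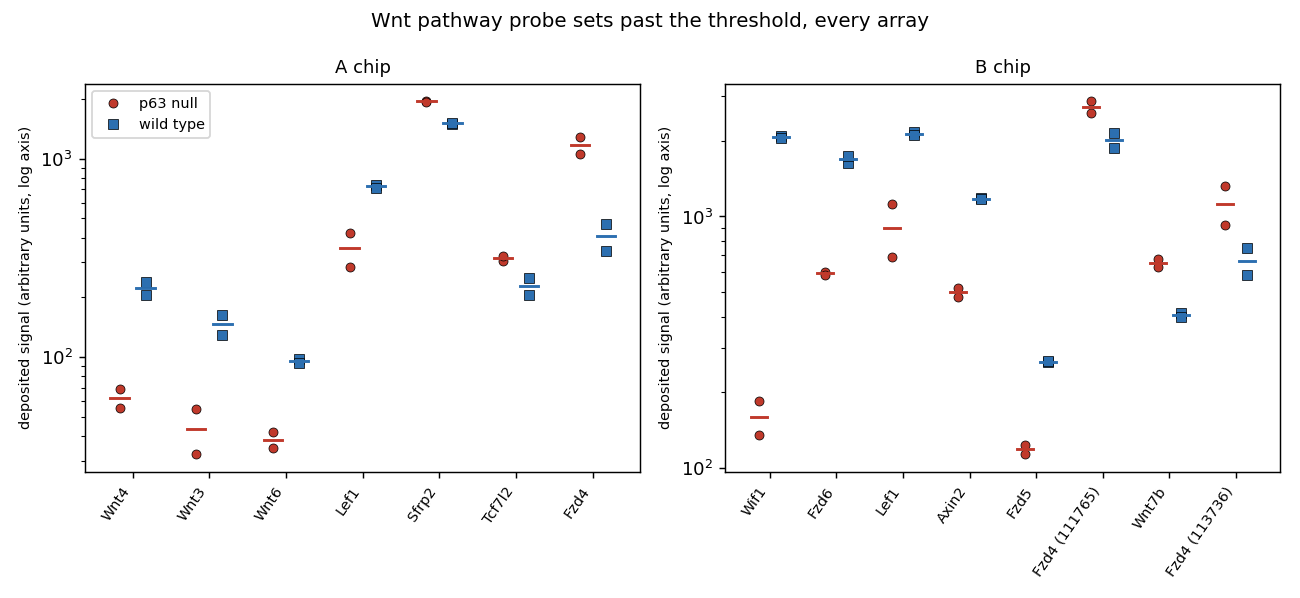
Deposited signal (arbitrary units, log axis) of the 15 probe sets that passed limma's test, with every array as a point (red circles, p63 null; blue squares, wild type) and the mean of the 2 arrays as a bar. In each of the 15 the points of the genotypes do not overlap, and the widest gap is that of Wif1, at 135.1 and 185.2 in null skin, against 2089.5 and 2047.8 in wild type.

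The receptors divided. Fzd6, a Frizzled that aligns hair follicles in mouse skin, read 603.4 and 584.6 in null skin, against 1636.4 and 1740.8 in wild type. It fell by 1.43 on the log2 scale (SE 0.13, adjusted p = 0.000394). The arrays of each genotype lay close together, with the wild-type mean 2.84 times the null mean. Fzd5, a receptor needed in the yolk sac and gut of the mouse, read 123.9 and 113.6 in null skin, against 262.9 and 266.7 in wild type. It fell by 0.88 (SE 0.24, adjusted p = 0.0289). The call for Fzd5 was lost with no filter (adjusted p = 0.0684), without null replicate 2 (0.0546) and without wild-type replicate 1 (0.133) or 2 (0.142).

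Fzd4, the receptor for Norrin as well as for Wnt proteins and known from blood vessel growth in the retina, was higher in null skin on both chips. Its brightest A-chip probe set read 1055.4 and 1277.7 in null skin, against 469.1 and 343.0 in wild type, a difference of 1.50 (SE 0.17, adjusted p = 0.000125). The suffix of that probe set marks probes that can bind more than 1 transcript. One B-chip probe set of Fzd4 read 2870.8 and 2584.2 in null skin, against 1865.1 and 2151.7 in wild type, a difference of 0.43 (SE 0.13, adjusted p = 0.0458). The other read 925.1 and 1324.6 in null skin, against 750.3 and 583.4 in wild type, a difference of 0.70 (SE 0.21, adjusted p = 0.0416). The direction was the same for all 3, and the groups did not overlap in any of them, with fitted differences of 0.43 to 1.50. The A-chip call held under every alternative tried, whereas the B-chip calls were lost under 6 and 5 of the 12, in particular without either wild-type array (adjusted p = 0.273 and 0.103 for the first, 0.0565 and 0.211 for the second). Endothelial markers, given here because vessels express Fzd4, rose in 6 of 8 tested genes on the A chip and fell in 0, with summed signals of 4380 and 4894 in null skin, against 2465 and 2589 in wild type. Adipocyte markers rose in 7 of 8 and fell in 0, with sums of 17631 and 19367 in null skin, against 7102 and 6767 in wild type. Leukocyte markers rose in 9 of 10 and fell in 0, with sums of 8955 and 9609 in null skin, against 3687 and 3493 in wild type. Skeletal muscle markers rose in 13 of 13, with sums of 22033 and 25032 in null skin, against 11388 and 10806 in wild type. Of all tested A-chip probe sets, 22.1% were called higher. Among the markers that rose, Ucp1, Plin4, Ptprc and Actn2 were above the level for testing in null skin alone. The part of these cell types in the Fzd4 difference was not tested.

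The remaining tested receptors did not pass. Fzd8, which binds Wnt proteins with high affinity, read 856.6 and 1208.1 in null skin on the B chip, against 748.3 and 608.2 in wild type, a difference of 0.56 (95% confidence interval 0.09 to 1.02, adjusted p = 0.0732). Its A-chip probe set read 116.9 and 132.2 in null skin, against 100.2 and 77.3 in wild type, a difference of 0.44 (-0.01 to 0.89, adjusted p = 0.101). Null arrays were above wild-type arrays for Fzd8 on both chips. The B-chip probe set passed without null replicate 1 (0.79, adjusted p = 0.00912), and without null replicate 2 its difference was 0.32. Fzd2 read 324.0 and 482.5 in null skin on the A chip, against 287.0 and 286.5 in wild type, with a difference of 0.45 (0.03 to 0.86, adjusted p = 0.0755). The null arrays of Fzd2 differed, and without null replicate 1 it passed (0.73, adjusted p = 0.00302), while without null replicate 2 the difference was 0.17. Its brighter B-chip probe set read 560.8 and 275.1 in null skin, against 350.5 and 433.1 in wild type, with a difference of 0.02 (-0.68 to 0.72, adjusted p = 0.969). Fzd1, one of the brightest members on the B chip, read 3393.3 and 2778.4 in null skin, against 3219.2 and 3472.3 in wild type, and the difference was -0.12 (-0.44 to 0.20, adjusted p = 0.539). Fzd7 on the B chip read 477.6 and 403.4 in null skin, against 499.3 and 428.1 in wild type (difference -0.07, interval -0.49 to 0.36, adjusted p = 0.811). For Fzd1 and Fzd7 on the B chip the groups overlapped. The untested A-chip probe set of Fzd7 read 49.6 and 34.1 in null skin, against 32.7 and 21.1 in wild type, with no overlap.

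Of the co-receptors, Lrp6 read 626.1 and 389.9 in null skin, against 509.3 and 567.0 in wild type, and the difference was -0.12 (95% confidence interval -0.57 to 0.33, adjusted p = 0.658). The null arrays lay on both sides of the wild-type arrays, and without null replicate 1 the difference passed (-0.45, adjusted p = 0.0294), while without null replicate 2 it was 0.22. Lrp5 read 64.4 and 82.4 in null skin, against 46.4 and 58.5 in wild type, with a difference of 0.40 (-0.12 to 0.92, adjusted p = 0.190). Fzd3, a receptor of the polarity branch in nerve and skin, read 221.5 and 200.6 in null skin, against 251.2 and 211.6 in wild type, with a difference of -0.12 (-0.48 to 0.23, adjusted p = 0.557). A dimmer, untested probe set of Fzd3 read 11.2 and 31.8 in null skin, against 40.2 and 42.1 in wild type, with no overlap. Of the tested receptor probe sets, 14.3% of 7 passed on the A chip, beside 44.3% of all tested probe sets, and 50% of 8 did so on the B chip, beside 29.4%.

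The secreted inhibitors held the largest fall of the set. Wif1, which binds Wnt proteins outside the cell and keeps them from their receptors, read 135.1 and 185.2 in null skin, against 2089.5 and 2047.8 in wild type. It fell by 3.32 on the log2 scale (SE 0.17, adjusted p = 2.46e-05), and the wild-type mean was 12.9 times the null mean. The fall ranged from -3.50 to -3.02 over the alternatives and passed in all of them. Its mean in null skin, 160 ± 35.4 (SD, n = 2), lay just under the level for testing.

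The Sfrp proteins, which carry a Frizzled-like domain that captures Wnt proteins before they reach a receptor, had no probe set called lower. Sfrp2, a product of dermal fibroblasts, read 1944.4 and 1938.9 in null skin, against 1494.0 and 1511.5 in wild type, a difference of 0.37 (SE 0.11, adjusted p = 0.0216). The arrays of each genotype were nearly equal. Leaving out either wild-type array ended the call (adjusted p = 0.141 for each), as did a fit without the intensity trend in the variance (0.0652). Markers of dermal fibroblasts, cells that make Sfrp2, rose in 5 of 14 tested genes and fell in 1. Of all tested A-chip probe sets, 22.1% were called higher and 22.2% lower. The summed signals of these markers were 46736 and 54177 in null skin, against 42584 and 40507 in wild type. The part of dermal fibroblasts in the Sfrp2 difference was not tested. Sfrp4 read 107.8 and 92.2 in null skin, against 60.1 and 70.8 in wild type, a difference of 0.53 that did not pass (95% confidence interval 0.06 to 0.99, adjusted p = 0.0641, and 0.0318 with no variance trend). Sfrp1 on the B chip read 562.2 and 716.9 in null skin, against 585.5 and 553.2 in wild type, and its groups overlapped (difference 0.14, interval -0.26 to 0.55, adjusted p = 0.560). The A-chip probe set of Sfrp1, too dim to be tested, is given with the dim members below. Dkk3, the most divergent Dickkopf protein, read 1060.2 and 1097.7 in null skin on the B chip, against 819.5 and 842.9 in wild type, with a difference of 0.36 (0.04 to 0.67, adjusted p = 0.0874). Its A-chip probe set read 133.0 and 167.0 in null skin, against 133.0 and 125.5 in wild type (difference 0.19, adjusted p = 0.423).

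**Figure D2:**
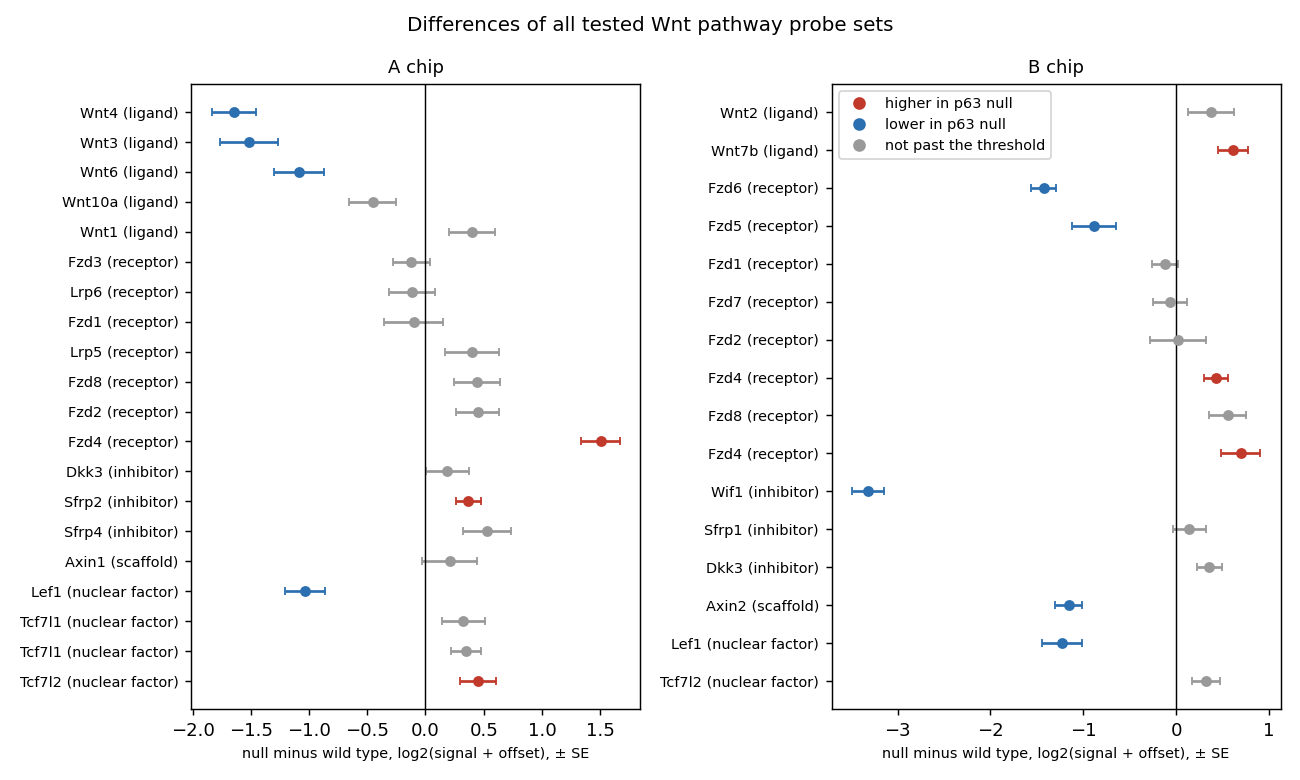
Difference in log2(signal + offset), null minus wild type, with its standard error, for the 36 tested probe sets, grouped by role from ligands at the top to nuclear factors at the bottom (red, higher in null; blue, lower in null; grey, not past the threshold). Wif1 on the B chip, at -3.32, lies farthest from 0, and Fzd4 on the A chip, at 1.50, is the highest.

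Inside the cell, Axin2 and Lef1 were lower in null skin. Axin2 is a scaffold of the complex that destroys beta-catenin and is itself switched on by the pathway, so it is widely used as a readout of Wnt signalling. Its B-chip probe set read 519.7 and 478.7 in null skin, against 1184.7 and 1170.1 in wild type, and fell by 1.16 (SE 0.14, adjusted p = 0.00138). The A-chip probe set of Axin2 did not show this: it read 56.0 and 47.3 in null skin, against 60.7 and 49.0 in wild type, overlapping and just under the level for testing. Axin1, the scaffold that the pathway does not induce, read 299.7 and 291.1 in null skin, against 343.1 and 187.4 in wild type. The difference of 0.21 (95% confidence interval -0.33 to 0.74, adjusted p = 0.504) rests on wild-type arrays that differed from each other, and it passed without wild-type replicate 1 (0.62, adjusted p = 0.0282).

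Lef1, the Tcf/Lef factor of hair follicle matrix and dermal papilla, was lower in all 3 of its probe sets. On the A chip the brighter one read 421.8 and 285.9 in null skin, against 740.5 and 709.9 in wild type, and fell by 1.03 (SE 0.17, adjusted p = 0.00140). On the B chip Lef1 read 1118.8 and 687.8 in null skin, against 2162.7 and 2108.8 in wild type, and fell by 1.23 (SE 0.21, adjusted p = 0.00569). In both of these, null array 2 was the lower null array, and without it the differences were -0.76 (A chip) and -0.90 (B chip), still past the threshold. The second A-chip probe set, made from the same database sequence, read 8.2 and 14.7 in null skin, against 128.3 and 121.9 in wild type. It was too dim over the 4 arrays for the main test, and with no filter it fell by 2.52 (adjusted p = 0.00164).

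None of the other tested Tcf probe sets was called lower. Tcf7l2, which acts in many epithelia, read 305.9 and 324.0 in null skin on the A chip, against 250.9 and 205.0 in wild type, a difference of 0.45 (SE 0.15, adjusted p = 0.0384). The suffix of this probe set marks a gene family, and the call was lost with no filter (adjusted p = 0.0660), with no variance trend (0.0541), without null replicate 2 (0.103) and without wild-type replicate 2 (0.253). The B-chip probe set of Tcf7l2 read 964.4 and 914.7 in null skin, against 683.0 and 804.0 in wild type, with a difference of 0.32 (95% confidence interval -0.03 to 0.67, adjusted p = 0.149). Tcf7l1, mostly a repressor and known from hair follicle stem cells, read 427.1 and 463.7 in null skin with one probe set, against 352.8 and 340.4 in wild type (difference 0.35, interval 0.06 to 0.64, adjusted p = 0.0522, and 0.0396 with quantile normalization). Its other probe set read 358.9 and 544.0 in null skin, against 334.5 and 366.8 in wild type (difference 0.33, interval -0.10 to 0.75, adjusted p = 0.188). Without null replicate 1 this one passed (0.62, adjusted p = 0.00697), and without null replicate 2 the difference was 0.03. All 3 null means lay above the wild-type means, and 0 of these 3 probe sets passed.

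Many members were dim. Of the A-chip probe sets 25 of 45, and of the B-chip ones 2 of 18, stayed below the level for testing. Of the A-chip ones, 14 nevertheless had genotypes that did not overlap; over all 45 members the count was 28, and over all 12422 probe sets that are no control, 63.3% did not overlap. The B-chip count was 12 of 18, beside 58.0%. The inhibitor Dkk1, which blocks Lrp5 and Lrp6 and limits hair follicle formation, read 14.4 and 10.3 in null skin, against 84.0 and 104.6 in wild type. With no filter it fell by 2.08 (SE 0.25, adjusted p = 0.00285). Its relative Dkk2, known from the dermal papilla and the eye, read 23.2 and 16.8 in null skin, against 57.4 and 56.6 in wild type, and with no filter it fell by 1.09 (SE 0.24, adjusted p = 0.0230). For both, each null array was under each wild-type array, whereas both B-chip null arrays of Dkk3 were above. The other untested A-chip inhibitors, Frzb and Sfrp1, also had both null arrays above both wild-type arrays. Frzb read 58.5 and 50.4 in null skin, against 27.2 and 43.8 in wild type (0.50, adjusted p = 0.253 with no filter). Sfrp1 read 53.7 and 71.3 in null skin, against 33.5 and 45.6 in wild type (0.52, adjusted p = 0.213 with no filter). A second Fzd4 probe set, with 41.3 and 48.4 in null skin, against 18.9 and 11.7 in wild type, rose by 1.04 with no filter (adjusted p = 0.0292).

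The other dim ligands gave no call even with no filter. Wnt11, a ligand of the polarity branch, read 16.6 and 18.2 in null skin, against 34.4 and 60.1 in wild type (difference -0.96, adjusted p = 0.0586 with no filter). Wnt3a read 24.0 and 20.4 in null skin, against 51.5 and 35.1 in wild type (-0.67, adjusted p = 0.120), and Wnt5a read 34.0 and 33.3 in null skin, against 54.9 and 40.5 in wild type (-0.37, adjusted p = 0.345). In each of these 3 both null arrays were below both wild-type arrays. Wnt10b, a ligand of the hair placode, could not be compared, because its 3 probe sets read 33.0 or less on every array. Fzd9 read 81.8 and 60 in null skin, against 35.6 and 38.5 in wild type (0.73, adjusted p = 0.0845 with no filter). The A-chip probe set of Fzd6 read 4.1 and 9.1 in null skin, against 4.5 and 19.7 in wild type, too dim to set beside the B-chip fall.

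**Figure D3:**
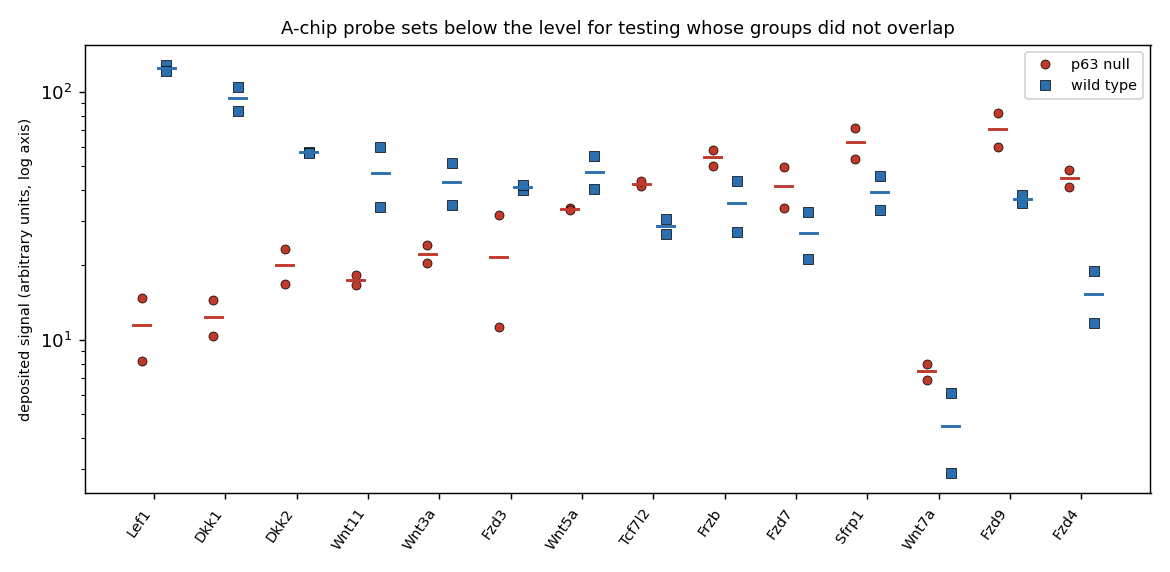
Deposited signal (arbitrary units, log axis) of the 14 A-chip probe sets below the level for testing whose genotypes did not overlap, with every array as a point (red circles, p63 null; blue squares, wild type) and the mean of the 2 arrays as a bar, ordered by the ratio of null to wild type. The second Lef1 probe set and Dkk1, at the left, have the widest gaps, at 8.2 to 14.7 in null skin, against 121.9 to 128.3 in wild type for Lef1.

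Genes of the pathway outside this set were read from a list of 131 symbols, each by its brightest probe set. Of these, 55 could be tested on the A chip, of which 3 rose and 16 fell, together 34.5%, beside 44.3% of all tested probe sets. The B chip let 51 be tested, of which 5 rose and 14 fell, together 37.3%, beside 29.4%. The list's median log2 difference was -0.17 (A chip) and 0.00 (B chip). Of the calls, 11 of 19 (A chip) and 7 of 19 (B chip) held under every alternative tried. Some genes that fell, among them Dlx3, Frat2 and Rnf43, were above the level for testing in wild type alone. The counts and shares of the parts of the list that follow are therefore a description and no support.

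Wls, which carries Wnt proteins to the cell surface, fell on both chips. The A-chip probe set read 604.4 and 459.2 in null skin, against 1452.5 and 1216.1 in wild type (difference -1.31, SE 0.15, adjusted p = 0.000187). The B-chip probe set read 580.1 and 617.5 in null skin, against 1821.2 and 1512.9 in wild type (-1.39, SE 0.15, adjusted p = 0.000769). The 2 chips gave nearly the same size. Receptors of R-spondin, a protein that boosts Wnt signals, and a ubiquitin ligase that dampens those signals were tested on the B chip. There 14.9% of all tested probe sets were called lower, and all 3 of these genes fell. These, named after their values were seen, were Lgr6 (-1.22, adjusted p = 0.00218), Lgr4 (-0.75, adjusted p = 0.00893) and the ligase Rnf43 (-0.89, adjusted p = 0.0461). Leaving out wild-type replicate 2 ended the call for Lgr4 (adjusted p = 0.0761). That for Rnf43 ended with no filter, without either wild-type array and without null replicate 1, with adjusted p-values of up to 0.294.

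Of the list's secreted or membrane inhibitors, which leave out Wif1 and the other genes chosen by symbol, the 1 tested on the A chip fell. Of 4 tested on the B chip 1 fell and 2 rose, with a median log2 difference of 0.39. Over all tested probe sets, 44.3% (A chip) and 29.4% (B chip) were called in either direction. Apcdd1, a membrane inhibitor whose mutation causes hair loss in humans, read 444.9 and 489.9 in null skin, against 1571.4 and 1548.0 in wild type, and fell by 1.71 (SE 0.12, adjusted p = 6.86e-06). Sostdc1, a secreted inhibitor of Wnt and BMP signals, read 1798.3 and 1720.8 in null skin, against 5084.1 and 4889.4 in wild type, and fell by 1.48 (SE 0.11, adjusted p = 0.000158). Kremen1, a receptor for Dkk proteins, had a difference of 0.17 that did not pass (adjusted p = 0.316). The list of Dishevelled and its partners had 1 of 3 tested genes lower on the A chip and 2 of 4 on the B chip, with 0 higher on either. That is 33.3% and 50%, beside 44.3% and 29.4% of all tested probe sets called in either direction, 22.2% and 14.9% lower. Nkd2, which binds Dishevelled and dampens the signal, read 441.5 and 488.4 in null skin, against 1429.1 and 1676.2 in wild type, and fell by 1.63 (SE 0.15, adjusted p = 0.000384). Its relative Nkd1, named after its value was seen, fell by 1.35 (SE 0.21, adjusted p = 0.00349). The 2 secreted or membrane inhibitors that rose were Shisa2 (0.91, adjusted p = 0.0213) and Shisa3 (0.59, adjusted p = 0.0490), relatives of a frog protein that holds Frizzled receptors inside the cell. Both calls were lost without either wild-type array, and each also under other alternatives.

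Beta-catenin itself (Ctnnb1), which also joins cadherins at cell contacts, read 1675.3 and 2310.5 in null skin, against 2795.3 and 2968.1 in wild type. It fell by 0.55 (SE 0.15, adjusted p = 0.0179), a call lost with no filter, with no variance trend and without wild-type replicate 2 (adjusted p of up to 0.0970). The list of beta-catenin and genes that control its destruction had 11 tested on the A chip, where 44.3% of all tested probe sets were called. Of the 11, 3 fell (27.3%) and 0 rose. Beside Ctnnb1 itself these were, named after their values were seen, Siah1a (-0.78, adjusted p = 0.00424), a ubiquitin ligase, and Ppp2r5d (-0.50, adjusted p = 0.0460), a phosphatase subunit whose call was lost under 6 alternatives. Among nuclear partners, 1 of 12 rose and 3 fell on the A chip, while 1 of 8 rose and 2 fell on the B chip. Together these were 33.3% and 37.5%, beside 44.3% and 29.4% of all tested probe sets. The coactivator Bcl9l rose by 0.82 on the B chip (SE 0.17, adjusted p = 0.0129, and 0.0548 without wild-type replicate 2), and Sox17, an endothelial factor that can bind beta-catenin, by 0.46 on the A chip (adjusted p = 0.0372), a call lost with no filter, without null replicate 2 and without either wild-type array.

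Reported targets of the pathway fell in 6 of 12 tested genes on the A chip and rose in 0, and in 3 of 7 on the B chip with 0 rises. These shares, 50% and 42.9%, stand beside 22.2% and 14.9% of all tested probe sets called lower. Calls in either direction were 44.3% and 29.4%. Dlx3, Nkd1 and Rnf43 were above the level for testing in wild type alone, so the shares of targets are a description and no support. Apcdd1, Nkd1 and Rnf43 are also counted in the lists above. The calls for Birc5, Ccnd1 and Rnf43, which are among these falls, were lost under some of the alternatives tried. The homeobox gene Dlx3, also among the hair follicle markers, fell furthest, with 11.4 and 27.9 in null skin, against 404.9 and 362.4 in wild type (-3.65, SE 0.26, adjusted p = 8.24e-06). Frat2, which binds the kinase Gsk3, fell by 1.15 on the A chip (adjusted p = 0.00308). In the polarity and calcium branch, 2 of 12 genes rose and 1 fell on the A chip, while 2 of 17 rose and 2 fell on the B chip. Together these were 25% and 23.5%, beside 44.3% and 29.4% of all tested probe sets. Vangl2, a core polarity protein that works with Fzd6 in orienting hair follicles, read 701.1 and 574.0 in null skin, against 1709.8 and 2172.4 in wild type, and fell by 1.52 (SE 0.17, adjusted p = 0.000910). Camk2b, a calcium-dependent kinase of nerve and muscle, rose by 1.22 (SE 0.19, adjusted p = 0.000823), beside the 13 of 13 skeletal muscle markers that rose. Of all tested A-chip probe sets, 22.1% were called higher. The part of muscle in the Camk2b difference was not tested. Nfatc2 on the A chip (0.55, adjusted p = 0.0266) and the kinase Mapk9 on the B chip (0.59, adjusted p = 0.0148) also rose, and both calls were lost without either wild-type array. That of Nfatc2 was also lost with no filter and without either null array.

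**Figure D4:**
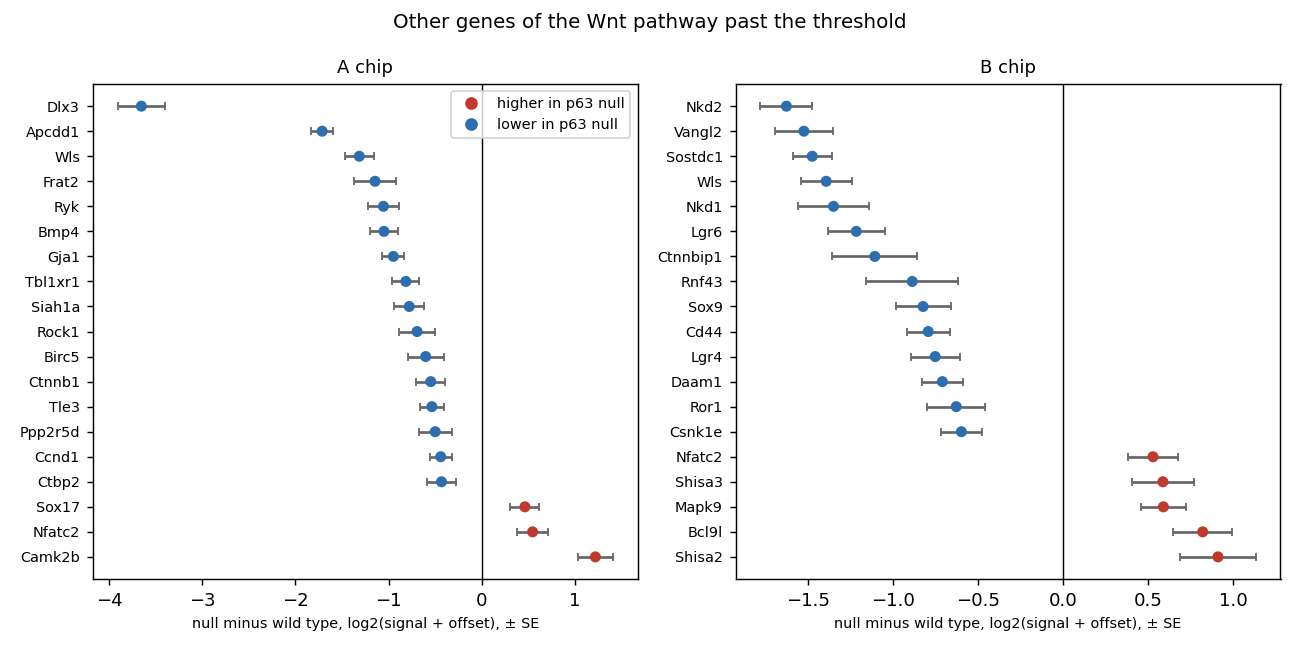
Difference in log2(signal + offset), null minus wild type, with its standard error, for the 19 other pathway genes past the threshold on each chip, ordered from the largest fall to the largest rise (blue, lower in null; red, higher in null). On the A chip 16 fell and 3 rose, and on the B chip 14 fell and 5 rose, with Dlx3 at -3.65 the farthest from 0.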

How the data were processed

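Total RNA from whole skin was extracted with TriZol and cleaned on RNeasy columns, per the labels' protocols, and hybridised to 8 single-colour Affymetrix arrays. The deposited values are linear intensities per probe set, made by the authors with MAS5 per the submitters' processing notes, with no version or detection calls given in the sources used here. Arrays of a chip already shared a 2% trimmed mean (250.1 to 250.2 for the A chip, 500.1 for the B chip). Each array was rescaled to that mean, an offset at the 20th percentile of the chip was added, and log2 values were fitted with limma 3.58.1 in R 4.3.3 (lmFit, then eBayes with an intensity trend), two-sided, over the 7453 and 7446 probe sets tested, after leaving out 66 control probe sets a chip. The fit was tested on simulated data. Behind each p-value, eBayes combines the spread between the 2 arrays of each genotype with a variance trend over the tested probe sets. A p-value therefore does not measure the spread of its own arrays alone. Precision stays low with only 2 arrays per genotype.

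Symbols came from the platform annotation, which can be old. Of probe sets with 1 symbol, 10839 of 10855 (A chip) and 10572 of 10603 (B chip) were found in RefSeq (GRCm38.p6). Probe sets with several symbols were not used (396 and 178), and 1237 and 1696 had none. The genes, the lists and the tests were chosen with earlier results of these data known. Every member past the threshold is named, and of the pathway list the 4 largest falls and rises on each chip and Ctnnb1. The alternatives were other normalizations, offsets, filters and variance models, a replicate block, and leaving out each array.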

Additional observations from a re-analysis of the deposited data

How the results depend on the processing

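Of the 15 calls among Wnt ligands, receptors, inhibitors and nuclear factors, 9 held under each of the 12 alternatives that tested the probe set, and 6 were lost under at least 1 (Fzd5, Wnt7b, Sfrp2, Tcf7l2 and both B-chip probe sets of Fzd4). With no filter, 7 of these probe sets were lower on the A chip, while on the B chip 1 was higher and 5 were called in all; the pathway list then had 1 A-chip and 3 B-chip rises. With the filter at the 60th percentile, fewer were tested, and 1 was lower and 4 were called on the A chip. With no variance trend 1 was higher on the B chip. Leaving out 1 array at a time gave 5 to 10 A-chip calls (1 to 5 higher) and 4 to 7 B-chip calls (0 to 2 higher, lowest without either wild-type array). The pathway list gave 13 to 18 (1 to 3 higher) and 8 to 26 (0 to 9 higher, 8 to 17 lower). Over all probe sets these were 2197 to 3303 (A chip, 1078 to 1574 higher) and 1103 to 2477 (B chip, 546 to 1186 higher, 557 to 1291 lower). The cause was not tested. The sign of probe sets that were not called changed for Fzd1 (A chip, -0.35 to 0.14; B chip, -0.26 to 0.021), Lrp6 (-0.45 to 0.22), Axin1 (-0.21 to 0.62), and on the B chip for Sfrp1 (-0.016 to 0.31), Fzd2 (-0.43 to 0.47) and Fzd7 (-0.17 to 0.042).

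The labels number arrays 1 and 2 in both genotypes without tying them together. Deviations of same-numbered arrays correlated at 0.04 (A chip) and -0.05 (B chip). With a replicate block, 8 A-chip and 9 B-chip members were called (Fzd2 on the A chip, adjusted p = 0.0434, and Fzd8 on the B chip, 0.0461, were gained), 19 and 24 pathway genes (8 higher on the B chip), and 3368 and 2411 of all probe sets.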
